A study of Mus musculus with 8 samples.

Results

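The genes described here are 32 mouse genes whose human counterparts are recurrently mutated in myeloid leukaemia and related disorders, and the question is where C/EBPα was found around them. They comprise 11 epigenetic regulators, 5 splicing genes, 4 cohesin genes, 5 signalling genes and 7 others, out of 21883 protein-coding genes. C/EBPα regions were the union of the peaks of 6 libraries, joined where they overlapped by at least 1 bp, and a region was assigned to a gene when it lay inside the gene body or within 10 kb of it. By this rule 580 of 259446 regions belonged to the 32 genes, each region to 1 of them.

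C/EBPα was mapped by CUT&RUN, in which an antibody-bound nuclease releases the DNA beside a protein, in sorted bone marrow progenitors that were lineage-negative, KIT high to intermediate and FLT3-positive. The mice carried one of 3 genotypes of the -165 kb enhancer of Zeb2, named WT, DC and DE in the labels, which do not say what sequence DC and DE change. Antibody libraries numbered 2 for each genotype, made in batch 1 (replicate 1) and in batch 2 (replicate 2). Whether the replicates are different animals, and how many were pooled, is not in the labels, so p-values measure the spread between these libraries, and 2 IgG control libraries from WT cells were not analysed here.

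C/EBPα is a basic leucine zipper factor that directs progenitors towards granulocytes and monocytes, and its own gene is mutated in a subset of acute myeloid leukaemia. The genes around it in the mutational landscape fall into a few classes. DNA methylation and histone regulators and splicing factors are typical of early, clonal disease, cohesin subunits shape chromatin loops, and RAS pathway genes transmit growth factor signals.

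The libraries differed widely. They held 50221 to 169943 peaks, with the most in DC replicate 1, and the median number of fragments at summits of the 23480 regions called in all 6 libraries ranged from 24 to 58. The depth is unknown because the lists carry no read totals, and the least pileup that gave a call at the background floor was 4 to 7 fragments. The summit pileup, the number of fragments covering a summit, was recovered from the deposited values, and where it is called scaled it was divided by a factor for each library that set the median log2 difference over the 23480 shared regions to 0. As a check of the cells, regions called in both WT libraries lay at 4 of 4 progenitor markers (Kit, Flt3, Cd34 and Myb), at 6 of 6 neutrophil and monocyte markers and at 0 of 4 markers of other organs, as well as at 3 of 4 B lymphoid, 2 of 4 T and NK, 2 of 4 erythroid and 4 of 4 dendritic markers. A region near a marker is occupancy and not expression, so this does not measure the cell types present.

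The promoters of 4 genes are shown first, those of Calr, Srsf2, Nup98 and U2af1, because they are the best ranked of 9 genes whose strongest WT region had its summit inside the promoter window. Each is the 250 bases before a transcription start from RefSeq (GRCm38.p6, the same assembly as mm10), all on the minus strand, at chr8:84846932-84847181, chr11:116853095-116853344, chr7:102210167-102210416 and chr17:31658765-31659014. Capitals mark CCAAT or its reverse complement ATTGG and, in Srsf2 alone, TTACGCAA, which matches TTNNGCAA, the reverse complement of TTGCNNAA. TTGCNNAA is the core that C/EBP factors prefer, while CCAAT is the box for which the family was named.
Calr: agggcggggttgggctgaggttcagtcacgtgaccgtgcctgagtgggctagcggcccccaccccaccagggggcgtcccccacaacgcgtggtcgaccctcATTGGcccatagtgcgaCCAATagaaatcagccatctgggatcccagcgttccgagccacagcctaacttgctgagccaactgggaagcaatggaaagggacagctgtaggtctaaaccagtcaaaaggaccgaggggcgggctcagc
Srsf2: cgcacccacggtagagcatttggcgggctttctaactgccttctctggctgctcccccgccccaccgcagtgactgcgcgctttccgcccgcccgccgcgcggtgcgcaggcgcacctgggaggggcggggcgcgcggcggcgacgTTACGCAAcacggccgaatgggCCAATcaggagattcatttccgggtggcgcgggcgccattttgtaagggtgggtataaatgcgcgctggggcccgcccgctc
Nup98: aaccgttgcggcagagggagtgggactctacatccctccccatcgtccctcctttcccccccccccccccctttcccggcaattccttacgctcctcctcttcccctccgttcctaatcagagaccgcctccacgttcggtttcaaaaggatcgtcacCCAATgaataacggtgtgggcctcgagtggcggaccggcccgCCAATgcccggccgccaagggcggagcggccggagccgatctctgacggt
U2af1: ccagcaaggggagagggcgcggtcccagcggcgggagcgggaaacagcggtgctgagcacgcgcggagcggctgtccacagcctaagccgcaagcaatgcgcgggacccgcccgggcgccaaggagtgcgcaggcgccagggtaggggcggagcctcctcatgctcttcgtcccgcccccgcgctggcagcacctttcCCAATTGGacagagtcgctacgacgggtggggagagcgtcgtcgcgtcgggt
In U2af1 the 2 matches overlap as CCAATTGG. The WT summits lay 105, 133, 224 and 92 bases before the start in Calr, Srsf2, Nup98 and U2af1.

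Of 32851 promoter windows of this length, 9.56% held TTGCNNAA on either strand and 33.8% held CCAAT. Among 33 windows of 26 of the 32 genes, 2 (6.06%) held TTGCNNAA, those of Srsf2 and Zrsr2, and 11 (33.3%) held CCAAT. Both shares were therefore no higher than in all promoters, and a match is a description of letters, not of binding. The windows of Kdm6a, Asxl1, Kmt2a, Nras and Smc1a also contained their gene's strongest WT summit, at 5, 164, 134, 51 and 30 bases before the start. Smc1a held CCAAT, and the other 4 held neither motif. The printed windows were 62.0%, 69.6%, 64.4% and 71.6% G or C, against a median of 52.4% over all windows.

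In WT cells 26 of the 32 genes had a region called in both libraries, or 81.2%, against 56.7% of all protein-coding genes. The count was 31 in DC, where 60.7% of all genes had one, and 29 in DE, where 58.0% had one. The genes are long: their median window, gene body plus 10 kb on either side, was 72.6 kb against 37.2 kb for all genes. Among windows of 100 to 200 kb all 7 genes had a region, against 70.2% of all genes of that size, and above 200 kb all 4 had one, against 65.0%. Among windows of 50 to 100 kb the share was 7 of 11, against 67.4%, and among those of 30 to 50 kb it was 4 of 6, against 63.4%. Among windows up to 30 kb all 4 genes had a region, against 40.8% of all genes of that size. The density over the whole set was 2.31 regions per 100 kb in WT, against 2.15 for all genes, and the median density per gene was 2.49 against 1.5.

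The groups differed in density. Splicing genes had 4.72 regions called in both WT libraries per 100 kb and signalling genes 4.33, while epigenetic genes had 2.55, cohesin genes 2.43 and the remaining genes 1.17. In DC the values were 6.82, 5.31, 2.25, 3.03 and 2.01 in the same order, and in DE they were 7.35, 4.33, 2.64, 2.43 and 1.95. Over all protein-coding genes the density was 2.15 in WT, 2.51 in DC and 2.27 in DE. Splicing and signalling genes were thus the 2 densest groups in every genotype with this window, but the groups hold 4 to 11 genes, and the difference between groups was not tested. With a window of 50 kb the splicing value in WT was 2.88, beside 4.95 for signalling and 2.84 for epigenetic genes. Density varied within both groups: Ddx41 had 19.0 regions per 100 kb and Calr 16.1, above 99.1% and 98.2% of all genes, while Sf3b1 had 1.60 and Nf1 2.67. Of the 9 WT regions of the splicing genes, 5 were at Ddx41 and 2 at Srsf2. Splicing genes also had the shortest windows, with a median of 32.1 kb, against 65.5 to 111 kb in the other groups. The densities were not adjusted for window length. In WT, pathway partners outside the set came in the same order with the 10 kb window. There were 5.65 regions per 100 kb for 8 splicing partners, 2.81 for 12 signalling partners, 2.51 for 12 epigenetic partners and 1.00 for 8 cohesin partners. In DC these values were 6.24, 3.67, 3.03 and 1.39. In DE they were 5.35, 2.57, 3.03 and 1.08, so there the signalling partners fell below the epigenetic ones. The splicing partners too had the shortest windows of the partner groups, with a median of 40.3 kb. Of these 40 partners, 37 had a WT region.

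**Figure D1:**
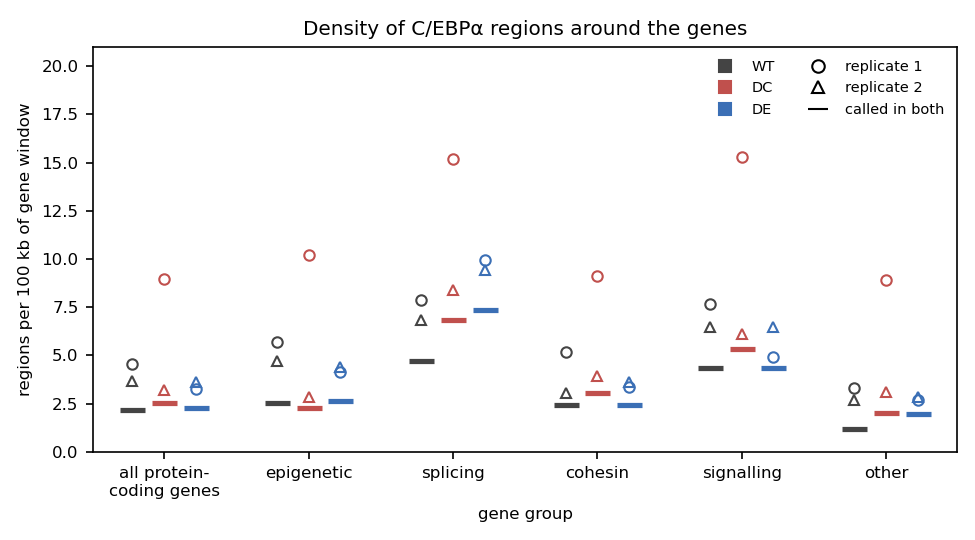
C/EBPα regions per 100 kb of gene window (y axis) for all protein-coding genes and the 5 groups (x axis), by genotype colour. Open circles are replicate 1, triangles replicate 2 and bars the regions called in both libraries of a genotype; DC replicate 1 stands above every other library in each group, and the WT bar is highest for splicing genes, at 4.72.

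Per library, the genes held 180 and 145 regions in WT replicates 1 and 2, 378 and 137 in DC libraries and 138 and 152 in DE libraries. DC replicate 1 stood far above the rest, and the other 5 libraries lay between 137 and 180, so the genotypes overlapped. The log2 difference of DC from WT was 0.494 (exact permutation test, two-sided, p = 1.00) and that of DE from WT was -0.158 (p = 0.667 by the same exact permutation test), with 0.33 the smallest p that 2 libraries against 2 allow. Within batches the ratio of DC to WT was 2.10 in batch 1 and 0.945 in batch 2, and that of DE to WT was 0.767 and 1.05, so neither direction held in both batches. As a share of each library's regions the genes took 0.224% and 0.261% in WT, 0.225% and 0.282% in DC libraries and 0.269% and 0.272% in DE libraries.

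Most regions were seen once. Of the 580 regions, 417 (71.9%, against 76.7% of all regions) were called in 1 library, 228 of them in DC replicate 1, and 66 (11.4%, against 9.05%) were called in all 6. Those 66 regions lay at 26 of the 32 genes (81.2%), against 50.5% of all protein-coding genes with such a region. Regions called in both libraries of a genotype numbered 83 in WT, 104 in DC and 101 in DE, beside 31297, 36245 and 33502 over all regions. The 83 WT regions were 46.1% of those in replicate 1 and 57.2% of those in replicate 2, against 39.0% and 56.4% over all regions. In DC the shares were 27.5% and 75.9%, against 21.6% and 74.6%, and in DE 73.2% and 66.4%, against 65.3% and 60.0%.

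**Figure D2:**
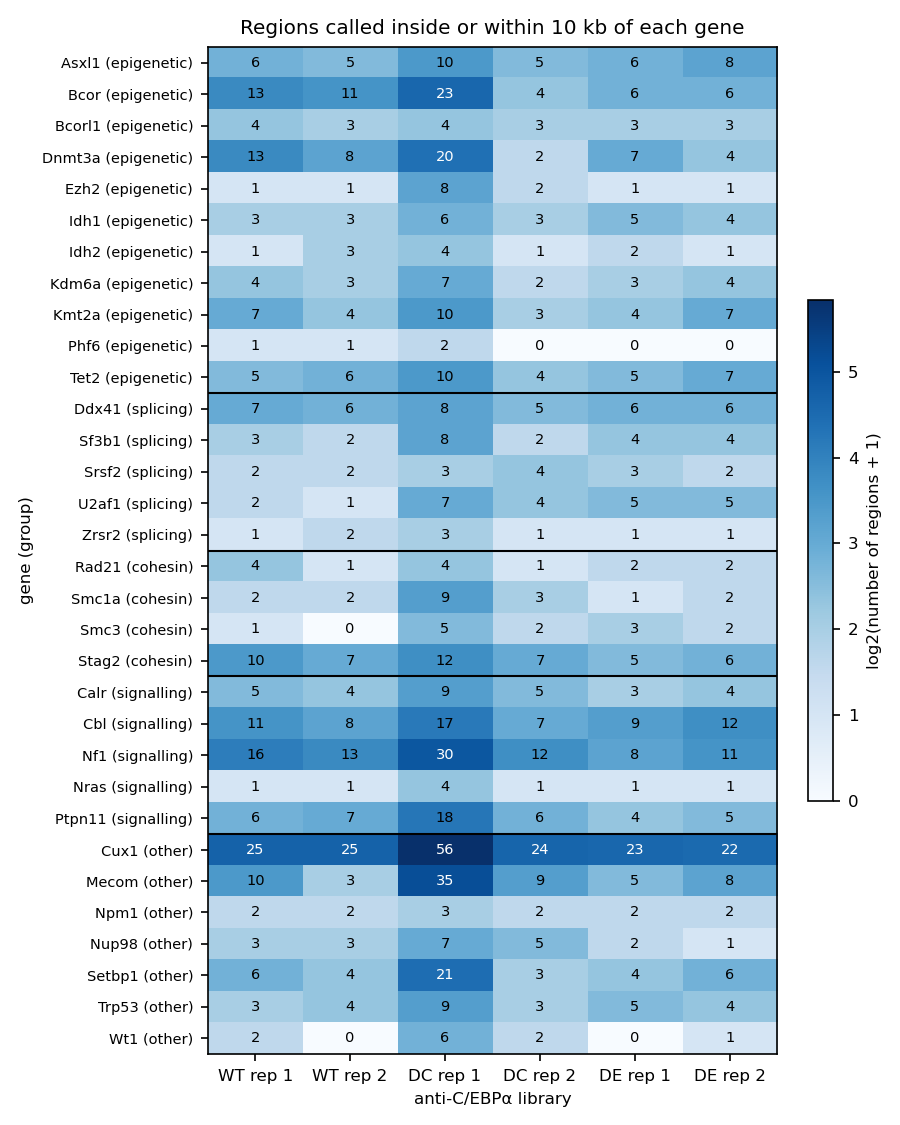
Number of C/EBPα regions called inside or within 10 kb of each of the 32 genes (y axis, by group) in each of the 6 libraries (x axis), shaded by log2(number + 1). Cux1 has 22 to 56 regions in every library, Phf6 has none in DC replicate 2 or in DE, and DC replicate 1 has at least as many as any other library in every gene but Srsf2.

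Among the epigenetic genes, Idh1, whose enzyme makes α-ketoglutarate for the demethylases, held the region that ranked best among all 32 genes by the worse of its 2 WT ranks in −log10 q. At chr1:65176951-65178722, inside the gene and 828 bp past one listed start, its pileup was 176 and 172 in WT libraries, 220 and 98 in DC libraries and 208 and 159 in DE libraries. Only 1.94% of the regions called in both WT libraries ranked as high in both. After scaling, both DC values (136 and 150) lay below the other 4, which were 174 to 181; the log2 difference of DC from WT was -0.33 (SE 0.21), with a limma adjusted p of 0.473 in the fit with batch as a term.

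The region of Bcor, a Polycomb-associated corepressor, at chrX:12155881-12156542 had pileups of 49 and 73 in WT libraries, 59 and 35 in DC libraries and 53 and 30 in DE libraries. That of Kdm6a, a histone H3 lysine 27 demethylase, at chrX:18162318-18162685 had 36 and 68, 75 and 55, and 61 and 50. Scaled, both DE values of the Bcor region (44.3 and 34.0) lay below both WT values (49.4 and 76.7), a log2 difference of -0.67 (SE 0.31) that did not pass (limma adjusted p = 0.356 in the same fit), while the Kdm6a genotypes overlapped. The H3 lysine 4 methyltransferase gene Kmt2a and the Polycomb adaptor gene Asxl1 each had a start region, and Idh2, the mitochondrial partner of Idh1, had 1 region in all 6 libraries, with 60 and 16 fragments in WT.

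Tet2, which oxidises 5-methylcytosine, had 4 regions called in both WT libraries, Dnmt3a, a de novo DNA methyltransferase, also 4, and Bcorl1, a relative of Bcor, 2. These were of middling strength, since 34.2%, 58.1% and 33.9% of the regions called in both WT libraries ranked as high as the best region of Tet2, Dnmt3a and Bcorl1. The number of Dnmt3a regions varied widely, with 13 and 8 regions in WT, 20 and 2 in DC libraries and 7 and 4 in DE libraries. The replicates of DC were thus further apart than any pair of genotypes in batch 2.

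Of the splicing genes, Ddx41 had its strongest region over another gene, and Srsf2 had its own over both its start and a neighbour. Ddx41 encodes an RNA helicase, and its strongest region at chr13:55527702-55528172 had pileups of 84 and 79 in WT libraries, 155 and 44 in DC libraries and 78 and 88 in DE libraries. This region and 3 more of the 5 WT regions of Ddx41 overlapped Dok3, which encodes an adaptor of immune signalling. The promoter region of Srsf2, a serine and arginine rich splicing factor, had 122 and 196 in WT libraries, 129 and 133 in DC libraries and 187 and 147 in DE libraries.

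Both regions of Srsf2 overlapped a neighbour, Jmjd6 or Mfsd11. The promoter region of U2af1, the small subunit of the factor that reads the 3′ splice site, had 60 and 90 in WT libraries, 155 and 69 in DC libraries and 73 and 114 in DE libraries, and overlapped no other gene. Sf3b1, a component of the U2 particle, had 1 region in all 6 libraries, upstream of the gene at chr1:55029469-55029713, of 33 and 22 in WT libraries, 43 and 22 in DC libraries and 27 and 25 in DE libraries. After scaling the genotypes overlapped at Ddx41, Srsf2 and Sf3b1. At U2af1 both DC values (95.7 and 106) lay above both WT values (60.5 and 94.6), with a log2 difference of 0.41 (SE 0.25) and a limma adjusted p of 0.436 in the fit with batch as a term.

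Among the cohesin genes, Rad21, the kleisin that closes the ring, had a region at chr15:51991604-51992154 of 92 and 78 in WT libraries, 143 and 59 in DC libraries and 81 and 71 in DE libraries. Stag2, the subunit most often mutated in myeloid disease, had one at chrX:42151770-42152445 of 38 and 51, 57 and 24, and 50 and 45. Smc1a, one of the 2 long coiled-coil subunits, had its region at the start, chrX:152016079-152016567, of 26 and 58, 44 and 27, and 43 and 30. Scaled, both DE values at Rad21 and both DC values at Stag2 lay below WT, by log2 differences of -0.24 (SE 0.26) and -0.33 (SE 0.32) that did not pass (limma adjusted p = 0.786 and 0.666, batch as a term), and the Smc1a genotypes overlapped. The Smc1a region also overlapped Ribc1 and that of Rad21 overlapped Gm52217. Smc3, the other coiled-coil subunit, had no region in both WT libraries.

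Signalling genes held the next best-ranked regions. That of Ptpn11, the phosphatase SHP2 that activates RAS signalling, lay 5794 bp beyond the gene at chr5:121124153-121124739 and had pileups of 292 and 199 in WT libraries, 523 and 119 in DC libraries and 386 and 246 in DE libraries. That of Cbl, a ubiquitin ligase that turns off receptor tyrosine kinases, lay inside the gene at chr9:44191156-44191576 with 117 and 91, 164 and 67, and 173 and 98. The promoter region of Calr, the endoplasmic reticulum chaperone calreticulin, had 148 and 205, 236 and 138, and 178 and 208.

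After scaling, the Ptpn11 values lay between 183 and 323, the Cbl values between 95.6 and 145 and the Calr values between 146 and 235, with each variant overlapping WT. Nras, a RAS GTPase, had a single WT region, at its start, among the weakest (80.3% of regions ranked as high). Nf1, whose protein turns RAS off, had 7 regions in both WT libraries, 4 of which overlapped the nested gene Evi2.

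Of the remaining genes, Cux1, a homeobox factor lost in deletions of chromosome 7 in patients, had the most regions: 11 in both WT libraries, 19 in DC and 16 in DE. Its strongest, at chr5:136482344-136482725, had 138 and 63 in WT libraries, 229 and 40 in DC libraries and 142 and 89 in DE libraries. The promoter region of Nup98, a nuclear pore gene and fusion partner, had 84 and 120, 133 and 85, and 125 and 126. The region of Setbp1, which encodes a binding partner of the SET protein, at chr18:79101376-79101775 had 25 and 22, 45 and 15, and 41 and 21. After scaling the genotypes overlapped in these 3 regions, and that of Nup98 also overlapped Pgap2. Trp53, the tumour suppressor, had 2 WT regions, one of them over Wrap53, and Mecom, the stem cell factor EVI1, had 2 over a window of 578 kb.

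**Figure D3:**
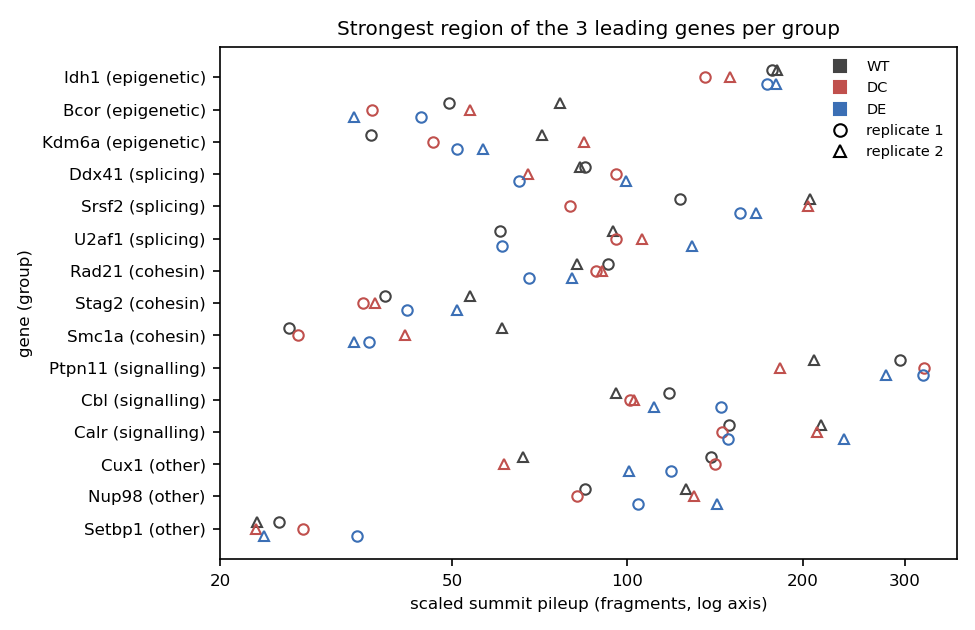
Scaled summit pileup (x axis, log scale) of the strongest WT region of the 3 leading genes in each group (y axis). Colours are genotypes, circles replicate 1 and triangles replicate 2; start regions such as those of Srsf2, Calr and Nup98 have higher triangles than circles in WT, and Ptpn11 reaches 323.

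Position relative to the start went with batch. A summit in both WT libraries lay within 1 kb of a start in 13 of 26 genes (50.0%), against 32.7% of 17491 genes with a listed start: 5 of 10 epigenetic, 3 of 5 splicing, 1 of 2 cohesin, 3 of 5 signalling and 1 of 4 others. Of the 66 regions in all libraries, 16 lay there, and their scaled pileup was higher in batch 2 than in batch 1 in 14 of 16 in WT, 15 in DC and 14 in DE, with median log2 differences of 0.86, 0.77 and 0.47. The 44 regions elsewhere at genes with a listed start had medians of -0.12, 0.04 and 0.03. A like split ran through all regions, with medians of 0.55, 0.38 and 0.22 over 5333 near a start and -0.16, -0.11 and -0.07 over 18147 elsewhere. There any listed start counted, whereas regions of the set were placed by the starts of their own gene.

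Because neighbours share windows, the assignment to a gene is loose for part of the set. Of the 83 WT regions, 57 lay inside one of the 32 genes, 20 overlapped another protein-coding gene, and 34 were within 10 kb of one. With those 34 left out, 16 of the 32 genes kept a WT region. The share of all protein-coding genes under this exclusion was not computed, so 16 cannot be set against it.

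The 66 regions called in all 6 libraries could be compared in height, with limma over all 23480 such regions and Benjamini-Hochberg adjustment. Without a batch term none of the 66 passed an adjusted p of 0.05 in any contrast, and none of all regions did (0% for DC against WT, DE against WT and DC against DE). At an unadjusted p under 0.05 there were 2, 2 and 1 of the 66 in these contrasts, against 1875, 1151 and 556 of all regions. The batches are given by the labels and pair the replicates, so the same fit was made with batch as a term. It called 4.30% of all regions in DC against WT (736 or 3.13% higher, 273 or 1.16% lower), 1.38% in DE against WT (262 or 1.12% higher, 62 or 0.264% lower) and 0.0298% in DC against DE.

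With batch as a term 1 of the 66 rose in DC and in DE against WT, 0 fell, and 0 differed between DC and DE. At an unadjusted p under 0.05 this fit had 6, 9 and 4 of the 66 in DC against WT, DE against WT and DC against DE, beside 3977, 2806 and 1913 of all 23480 regions. A count of 1 in 66 is near or below the shares over all regions. DC and DE were compared with the same WT libraries. The median log2 difference of the 66 was 0.00 for DC against WT, 0.02 for DE against WT and 0.02 for DC against DE, against -0.02, 0.00 and 0.00 over all regions, and 32, 36 and 34 of 66 were higher. With scaling by the background floor 64, 59 and 49 of 66 were higher, in a fit that moved the median of all regions to 0.84, 0.55 and 0.30, so no direction is drawn for the set.

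The region that passed lies in Nf1, at chr11:79577868-79578408, 3597 bp inside the end of the gene. Its pileup was 112 and 105 in WT libraries, 323 and 134 in DC libraries and 223 and 178 in DE libraries. After scaling it was 113 and 110 in WT libraries, 199 and 206 in DC libraries and 186 and 202 in DE libraries, so that both WT libraries lay below all 4 others. The log2 difference between DC and WT was 0.86 (SE 0.22) and that between DE and WT 0.80 (SE 0.22). Once batch was a term the limma adjusted p was 0.00747 and 0.0336, and without it 0.383 and 0.947.

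The call in Nf1 depended on the processing. With floor scaling and the batch term its adjusted p was 0.102 and 0.649, at log2 differences of 1.72 and 1.35. Leaving out one library at a time, with the batch term, the DC call was kept without WT replicate 1 (limma adjusted p = 0.0416) and lost without WT replicate 2, DC replicate 1 or DC replicate 2 (0.165, 0.249 and 0.257). Neither contrast was refitted without a library of the genotype outside it. The DE call was lost without any one WT or DE library. The log2 difference itself stayed between 0.74 and 0.93 in these fits.

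The other 5 tested regions of Nf1 had log2 differences of DC from WT between -0.54 and 0.19, and none passed. Between the region that passed and the end of the gene, chr11:79578776-79579053 was called in both DC libraries, at 25 and 12 fragments, and in no WT or DE library. The largest increase of DC over WT in log2 difference among the 66 was in Cux1 at chr5:136459863-136460235, 0.89 (SE 0.30), with an adjusted p of 0.0680 by limma with the batch term.

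By group, the median log2 difference of DC from WT was 0.00 over 16 epigenetic regions, 0.11 over 9 splicing regions, 0.04 over 5 cohesin regions, -0.03 over 19 signalling regions and 0.00 over 17 others. For DE from WT the medians were -0.08, 0.02, 0.03, 0.21 and 0.04. In the batch-term fit, 39 of 66 regions in DC and 40 in DE had a 95% interval within a factor of 2 either way (15 and 15 without the term), so for the rest these libraries do not bound the difference that closely. Of 72 regions at partner genes, 1 rose, at Pds5a, a cohesin regulator, in DC against WT (log2 difference 1.64, SE 0.41, limma adjusted p = 0.00747 with the batch term), with pileups of 10 and 8 in WT libraries, 46 and 19 in DC libraries and 19 and 18 in DE libraries. No partner region passed without the batch term, nor with it when DC replicate 1 or DC replicate 2 was left out.

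**Figure D4:**
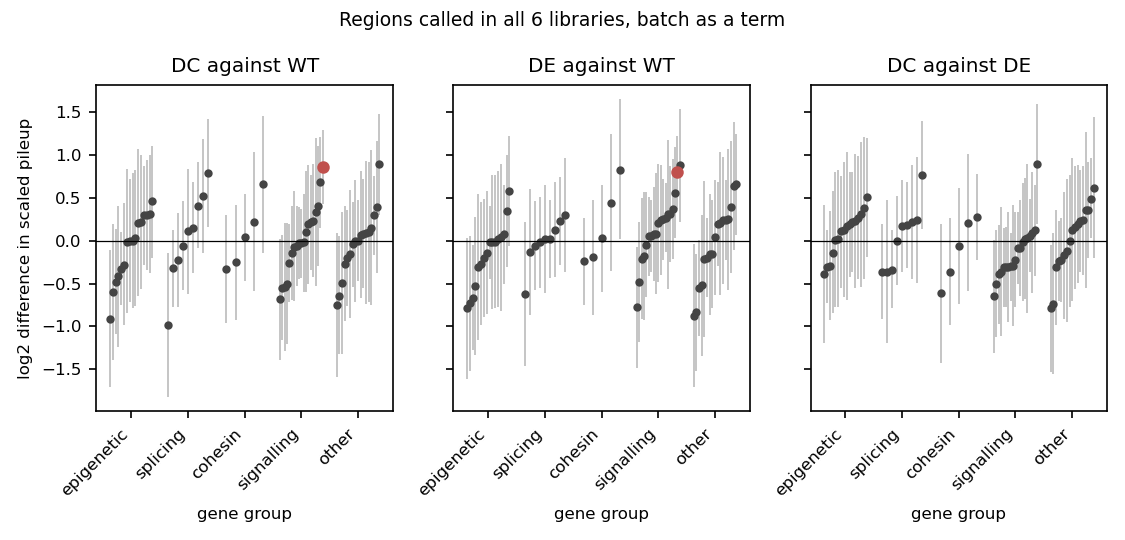
Log2 difference in scaled pileup (y axis) of the 66 regions called in all 6 libraries, by group (x axis), for the 3 contrasts, from the limma fit with batch as a term. Points are regions, grey lines 95% intervals and red points an adjusted p under 0.05; the red point in both contrasts with WT is the Nf1 region, at 0.86 and 0.80.

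Regions called in one genotype and in no library of another, below called absent from it, were counted by calls alone. Of the 83 WT regions, 1 was called in neither DC library (1.20%, against 3.23% of all regions) and 5 in neither DE library (6.02%, against 5.28%). Of the 104 DC regions, 13 were called in neither WT library (12.5%, against 10.9%) and 9 in neither DE library (8.65%, against 7.31%). Of the 101 DE regions, 13 were called in neither WT library (12.9%, against 6.55%) and 2 in neither DC library (1.98%, against 2.14%). DC and DE share the WT libraries in these counts.

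The WT region absent from DC was at the start of Tet2, chr3:133544196-133544413, with 20 fragments in both WT libraries and 8 in DE replicate 2. The 5 absent from DE were weak. They lay in Stag2 at chrX:42207759-42207940 (14 and 12 in WT, 31 in DC replicate 1), at chrX:12125884-12126019 and chrX:12124522-12124862 in Bcor (19 and 11 in WT with 9 in DC replicate 1, and 15 and 16 with 34), upstream of Ptpn11 at chr5:121196900-121197035 (13 and 15, with 36 and 5 in DC) and in Dnmt3a at chr12:3868599-3868802 (9 and 11, with 10 in DC replicate 1). None of these 6 exceeded 20 fragments in WT.

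In all, 6 regions were called in all 4 DC and DE libraries and in no WT library, out of 82 called in those 4 (7.32%, against 3.42% of 27857 regions). Without DC replicate 1, a setting added after seeing the data, the share was 7.23% against 3.59%. They were 2 in U2af1, 2 at Smc3 and 1 each in Mecom and Cux1. The U2af1 regions were the strongest. At chr17:31654971-31655337, 3725 bp past the start, the pileup was 78 and 25 in DC libraries and 69 and 37 in DE libraries, and at chr17:31648322-31648724, 10282 bp past it, 107 and 23 in DC libraries and 50 and 29 in DE libraries.

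Scaled, the first U2af1 region measured 48.2 and 38.4 in DC libraries and 57.7 and 41.9 in DE libraries, and the second 66.1 and 35.3 in DC libraries and 41.8 and 32.8 in DE libraries. Of the 954 regions of this kind in the genome, 9 and 13 had a lowest scaled pileup as high, each region itself included. The most fragments that would still give no call was computed for each WT library, with its local background set to the highest multiple of the floor seen in a library with a call. In the same batch, the DC values were 2.98 and 3.04 times that limit at the first region and 4.68 and 3.05 times at the second, and the DE values 3.57 and 3.32 times and 2.96 and 2.84 times. The promoter region of U2af1, printed above, was called in all 6 libraries. No test could be made of the U2af1 regions without a WT call, because an uncalled region has no value in the deposited lists. The cause of the missing calls was not tested.

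At Smc3 the region 338 bp before the start, chr19:53599887-53600146, had 24 and 30 fragments in DC and 17 and 34 in DE. Its replicate 1 values were 0.312 (DC) and 0.30 (DE) of the WT limit. The other Smc3 region, chr19:53609014-53609197, had 21 and 28 in DC libraries and 15 and 10 in DE libraries, and its values were 0.756 and 2.92 (DC) and 0.731 and 0.770 (DE) of the limit. The Cux1 region at chr5:136402544-136402897 had 28 and 22 in DC libraries and 23 and 9 in DE libraries, and the Mecom region had a scaled pileup of 6.79 to 20.0, at 0.280 to 0.999 of the limit. The missing WT calls therefore carry little information for 3 of the 6 regions, both at Smc3 and the one in Mecom.

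Further regions of DC called in no WT library included one in Cux1 at chr5:136557333-136557728 (42 and 11 in DC) and one in Nup98 at chr7:102193846-102194051 (25 and 8), both also absent from DE. Regions of DC absent from DE also lay in Cux1 at chr5:136555813-136556065 (42 and 7, with 19 in WT replicate 1) and in Smc1a at chrX:152019088-152019286 (18 and 8). The Smc1a region was called in no WT library either. Its DC values were 0.787 and 1.06 times the WT limit, and 0.886 and 1.55 times the limit computed in the same way for DE. Its missing calls therefore carry little information. Regions of DE called in no WT library lay in Cbl at chr9:44196411-44196652 (18 and 14 in DE), beside Tet2 at chr3:133463378-133463568 (40 and 19) and in Mecom at chr3:30091987-30092293 (18 and 10), and the library with the most peaks, DC replicate 1, also had a call in each, of 18, 38 and 12. The 2 regions of DE absent from DC lay in Setbp1 at chr18:79042763-79042921 (15 and 14) and in Bcor at chrX:12135113-12135418 (17 and 10, with 16 in WT replicate 2).

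The 6 genes with no region in both WT libraries were Ezh2, Phf6, Zrsr2, Smc3, Npm1 and Wt1. Npm1, a nucleolar chaperone and one of the most often mutated genes in this leukaemia, had a region 920 bp inside one end of the gene, chr11:33163086-33163375, of 55 fragments in WT replicate 2, 25 and 27 in DC libraries and 32 and 38 in DE libraries, with no call in WT replicate 1. Zrsr2, a minor spliceosome factor, had a start region, chrX:163958586-163958835, with 20 in WT replicate 2, 11 and 14 in DC libraries and 13 and 23 in DE libraries. Ezh2, the Polycomb methyltransferase, had a start region, chr6:47594972-47595535, with 19 in WT replicate 2, 11 and 9 in DC and 10 in DE replicate 2.

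In these 3 genes a call was missing from WT replicate 1 and present in replicate 2. For the start regions of Zrsr2 and Ezh2 this was the direction of the batch difference at starts. Npm1 has no listed start, so its region could not be placed relative to one. The part of the batch difference in the missing calls was not tested. Wt1, a zinc finger factor, had 10 weak regions, of which 1, beyond the gene, was called in both DC libraries (11 and 10). Phf6, a chromatin reader, was the only one of the 32 without a region in both libraries of any genotype. Its 4 regions, of 5 to 17 fragments, were each called in 1 library, with none in DC replicate 2 or in DE.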

How the data were processed

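For every peak of an antibody library the deposited list gives a fold enrichment (a ratio to local background), a −log10 p-value, a −log10 q-value and a score equal to 10 times the latter, as a whole number. MACS2 2.2.9.1, HOMER, SAMtools, Bowtie2 and Trimmomatic were used on build mm10, per the submitters' processing notes; their roles are not given in the sources used here. A q of 0.1 is part of the names of the deposited lists. The deposited merged list holds coordinates and no measurement and was not used.

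Peaks were joined into regions in Python 3.11.15 (pandas 2.3.3, numpy 2.4.6). Summit pileup k and background λ were recovered from fold = (k + 1)/(λ + 1) and the Poisson p-value; 99.99% of peaks in each library gave a whole k within 5% of a step. The log2 pileups were compared in limma 3.58.1 with a trended variance (R 4.3.3) over the 23480 regions called in all 6 libraries, without and with batch as a term. The labels give the batch, which pairs the replicates. Deviations of same-batch libraries correlated across regions (r = 0.55 for the pair WT, DC; 0.41 for WT, DE; 0.38 for DC, DE), and regions are not independent replicates. Counts per library were compared by an exact permutation test (scipy 1.17.1). The recovery and the limma fit were tested on simulated data. The simulated spread was limma's moderated one, chosen after the raw spread had given no calls; in that test the fit without the batch term made no correct call and the fit with it missed most of the smaller differences, so the absence of a call does not show that a region did not differ.

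Gene bodies and starts came from RefSeq tables of GRCm38.p6. A start was listed for 26 of the 32 genes and not for Phf6, Stag2, Rad21, Npm1, Wt1 and Setbp1. Regions given with values in every library are those that passed the test, the best region of the 3 leading genes of each group by the worse of the 2 WT ranks, up to 6 regions per contrast called in both libraries of a genotype and neither of another, and those of genes without a region in both WT libraries; the Sf3b1, Nras, Idh2, Trp53 and Cux1 near-threshold regions were named after their values were seen. The genes and lists were chosen with earlier results of these data known. Alternatives were other windows (1 kb, 50 kb, gene body alone), a −log10 q of at least 2, a 50 bp overlap, floor scaling, a pseudocount of 5, regions of the 4 libraries compared, the batch term and leaving out each library.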

Additional observations from a re-analysis of the deposited data

How the results depend on the processing

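WT occupancy of 26 genes ran from 23 to 31 over other windows, a −log10 q of at least 2 and a 50 bp overlap. The shares of all genes in these settings ran from 43.9% to 73.5%. Occupancy was 30 and 32 with 1 WT library, against 70.8% and 78.0% of all genes. It fell to 16 with regions near no other gene, an alternative chosen after seeing the data. For that alternative the share of all genes was not computed. The density of splicing genes was 3.98 with a 1 kb window, 2.88 with 50 kb and 3.31 in the gene body alone, and that of signalling genes 3.34 with 1 kb and 2.94 in the gene body. With 1 WT library densities ran from 4.70 to 5.68 (epigenetic), 6.82 to 7.87 (splicing), 3.03 to 5.15 (cohesin), 6.49 to 7.67 (signalling) and 2.66 to 3.31 (others), since 1 call then counts. The number of regions in DC against WT gave log2 differences of -0.238 (without DC replicate 1) to 1.23 (without DC replicate 2), and that in DE against WT of -0.314 to -0.002, or 0.160 as a share of the library's regions.

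With batch as a replicate block the count tests gave log2 0.494 and -0.158 again (exact permutation p = 1.00 each), and the changed regions were 1 for DC and 1 for DE in place of 0. The count was also 1 for both with the block and a pseudocount of 5 or a −log10 q of at least 2, and 1 for DC with regions of the 4 libraries; over the leave-one-out fits it was 0 to 1 for DC and 0 for DE. With floor scaling it was 0 with and without the block, and DC against DE had 0 in every fit. With the main scaling the block also gave the call at the partner gene Pds5a and changed no other member or partner call. With floor scaling 2 partner regions rose in DC against WT with the block, and 0 without it. Depth is unknown, so a missing call below 4 to 7 fragments, or more over a high local background, does not show absence.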
